A study of Mus musculus with 65 samples.

Results

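The cytosolic ribosomal protein genes encode the protein parts of the ribosomes that translate most mRNAs of the cell. Members were the rows of the deposited gene count table whose Ensembl identifier carries, in the GENCODE mouse annotation, a protein-coding symbol Rplp0, Rplp1, Rplp2 or Rpsa, or Rpl or Rps followed by a number and at most 1 of the letters a, l, x or y. This rule found 80 of the 31057 features, 31 of the small and 49 of the large subunit, and left out pseudogenes and the S6 kinases. The rule used no measured value.

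Each ribosome joins a small subunit, which reads the mRNA, to a large subunit, which forms peptide bonds, and each subunit needs its proteins in fixed proportion. Most of the encoding mRNAs begin with a C followed by a run of pyrimidines, the terminal oligopyrimidine (TOP) motif, through which mTOR and the RNA-binding protein LARP1 control their translation. Growth factors such as EGF and bFGF keep neural stem cells dividing and growing, and both are withdrawn to start differentiation.

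The libraries came from primary neural stem cells of the adult subventricular zone. Donors were 5 young mice, aged 3 to 4 months, and 4 old ones, aged 25 months, with males and females at each age. All carried the iOSKM genotype, controls included, in which doxycycline induces Oct4, Sox2, Klf4 and Myc. Stem cell medium with EGF and bFGF gave untreated and doxycycline libraries of young and of old cells at 18 h, and doxycycline libraries of old cells at 6 and 48 h. Differentiation medium lacks both factors and replaced stem cell medium 18 h after plating. It gave untreated libraries of young and of old cells, and doxycycline libraries of old cells, at 6, 18 and 48 h. Doxycycline was at 2 µg per ml, and each of the 15 groups held 1 library from each of its 5 young or 4 old mice. Untreated cells in stem cell medium are listed at 18 h alone, so 6 h of differentiation is set against 18 h in stem cell medium in untreated cells. The 65 libraries held 56.5 M to 116.8 M counts (median 86.7 M). Pou5f1, which encodes Oct4, lay at group means of 0.267 to 0.786 CPM (counts scaled to library totals) with doxycycline and 0.0625 to 0.205 CPM without it. The other factors showed no such clear rise. Untreated old libraries kept with the growth factors for 18 h had means of 258.2 CPM for Sox2, 8.115 for Klf4 and 175.1 for Myc. Their doxycycline counterparts had 254.7, 8.565 and 160.0 CPM. Induction of the cassette was not tested. Summed neural stem and progenitor markers had group means of 6562 to 9047 CPM. Those of microglia reached at most 12.3 CPM in a library, those of endothelial cells 24.1 CPM and those of mural cells 8.03 CPM. In bulk RNA, fewer cells of a type and less RNA per cell cannot be told apart.

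The starts of members that moved most and least are shown first, because the members share start-site letters more often than other genes do. Each line gives the 60 bases before and the 20 bases from the RefSeq start, 5′ to 3′ on the gene's strand, from build GRCm38.p6. Capitals mark a run of pyrimidines led by a C within 5 bases of the start, or the ETS core CCGGAAG on either strand. The first 5 genes had large falls during differentiation, the next 3 were among the smallest, and the change of Rpl41 at 18 h of differentiation against stem cell medium was the farthest apart between young and old cells.
Rps27l, chr9:66946026-66946105, plus strand: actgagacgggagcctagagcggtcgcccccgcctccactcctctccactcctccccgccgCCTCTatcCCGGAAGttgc
Rpl12, chr2:32961652-32961731, plus strand: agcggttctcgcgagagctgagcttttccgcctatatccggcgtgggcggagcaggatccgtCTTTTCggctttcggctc
Rps2, chr17:24720003-24720082, plus strand: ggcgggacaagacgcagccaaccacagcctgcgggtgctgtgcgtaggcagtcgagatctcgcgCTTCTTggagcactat
Rpsa, chr9:120127706-120127785, plus strand: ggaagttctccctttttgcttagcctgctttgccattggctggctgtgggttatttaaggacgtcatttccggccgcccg
Rps25, chr9:44407654-44407733, plus strand: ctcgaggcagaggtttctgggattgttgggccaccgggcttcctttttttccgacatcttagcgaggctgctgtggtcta
Rpl22, chr4:152325666-152325745, plus strand: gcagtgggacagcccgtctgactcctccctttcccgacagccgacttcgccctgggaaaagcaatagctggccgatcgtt
Rps27, chr3:90213629-90213708, minus strand: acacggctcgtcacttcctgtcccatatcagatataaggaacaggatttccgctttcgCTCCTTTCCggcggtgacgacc
Rps9, chr7:3703981-3704060, plus strand: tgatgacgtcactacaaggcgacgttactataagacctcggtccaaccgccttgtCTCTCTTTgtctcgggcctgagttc
Rpl41, chr10:128549149-128549228, minus strand: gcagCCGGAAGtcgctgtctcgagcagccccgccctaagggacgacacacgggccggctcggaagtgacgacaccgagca

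RefSeq windows of 300 bases, from 250 before to 50 after the start, were found for 60 members and not for 20. A C followed by 4 pyrimidines stood exactly at the start in 13 of the 60 (21.67%, against 2.51% of 32851 promoters) and within 5 bases of it in 28 (46.67% against 18.35%). CCGGAAG, searched on both strands, stood in the window of 25 (41.67% against 8.86%). The YY1 motif AAGATGGC stood in 5 (8.33% against 2.75%). CACGTG and TATAAA stood in 6 each, against 7.15% and 13.62% of all promoters. All were searched on both strands except the start motif, and AAGATGGC overlaps none of the others. These are matches of letters, and some annotated starts lie apart from the start that GENCODE gives. Some members had several windows, and a member counted when any of its windows held the motif. The background is a share of single promoters. The percentages are therefore not in the same unit, which raises those of the members. The members are spread over the genome, with 14 on chromosome 7 and 4 on the X chromosome.

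Levels between members are compared as CPM per kilobase of exon, which depends on the transcript taken as the length. Rplp1, an acidic protein of the stalk that recruits elongation factors, was highest at 1176 CPM per kb under each of the 3 lengths tried. By the length of the principal transcript it was followed by Rps9 (873.5 CPM per kb), a protein of the small subunit body, and Rpl23a (866 CPM per kb), which lies at the exit of the peptide tunnel. Rps15a (45.9 CPM per kb) and Rpl29 (57.6 CPM per kb) were the lowest of the members tested in every comparison. The place of Rps15a rests on a principal transcript of 5179 bases with a coding part of 393. Before division by length it was at 237.7 CPM, against 42.2 CPM for Rpl29. The ratio of the 90th to the 10th percentile was 5.54 ± 0.196 (SD over 65 libraries) by the union of all exons, 4.63 by the longest transcript and 3.35 by the principal transcript. Rps9 was 25th by the union of exons, so the order of single genes is uncertain.

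Several members share sequence with other genes. Near-identical copies of the coding part exist for 74 members, 575 copies in all, of which 24 had a row of their own. For 5 members the copies held more than 5% of the summed counts of member and copies. Rpl13a was the extreme, where the copies held 48.6%, ahead of Rpl21 (10.9%), Rpl41 (10.3%), Rpl35 (10.1%) and Rplp2 (7.25%), and their own counts are therefore uncertain. How the counting treated reads that match several copies is not given in the sources used here. The number of copies and the level per kb were not ordered alike (Spearman rho 0.02 across 77 members, which are not independent).

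The 3 paralogs known from testis or muscle were near or at 0. Rpl10l had no count in any library. Rpl39l had 90 counts in 7 of the 65 libraries. All 5 libraries of young replicate 5 were among them, with 7 to 36 counts each, while the other 2 libraries had 2 counts and 1 count. Rpl3l, the muscle form of Rpl3, had 755 counts in 56 libraries. Rps27l, the paralog of Rps27 and a known p53 target, was expressed well, at group means of 46.7 to 131 CPM.

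Summed over all members, the ribosomal protein mRNAs took 3.64 ± 0.0525% of counts in untreated young cells at 18 h in stem cell medium (mean ± SD, n = 5). Through differentiation the share was 3.43 ± 0.171% at 6 h, 2.53 ± 0.103% at 18 h and 2.04 ± 0.119% at 48 h. Untreated old cells had 3.71 ± 0.0736% in stem cell medium at 18 h (n = 4), and 3.50 ± 0.0761%, 2.58 ± 0.0890% and 2.14 ± 0.0549% at the same times of differentiation. Libraries at 18 h of differentiation, at 2.36% to 2.76%, did not overlap those at 6 h (3.25% to 3.85%) and met those at 48 h (1.86% to 2.40%) at the edge alone. Libraries of 6 h of differentiation and of stem cell medium did overlap. In old cells with doxycycline, stem cell medium held 3.60 ± 0.157% at 6 h, 3.80 ± 0.0753% at 18 h and 3.19 ± 0.106% at 48 h. The counts of the small subunit came to 0.666 of those of the large subunit at 18 h in stem cell medium in untreated young cells, and to 0.674, 0.640 and 0.631 at 6, 18 and 48 h of differentiation. The proportion of the subunits moved far less than their sum.

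**Figure D1:**
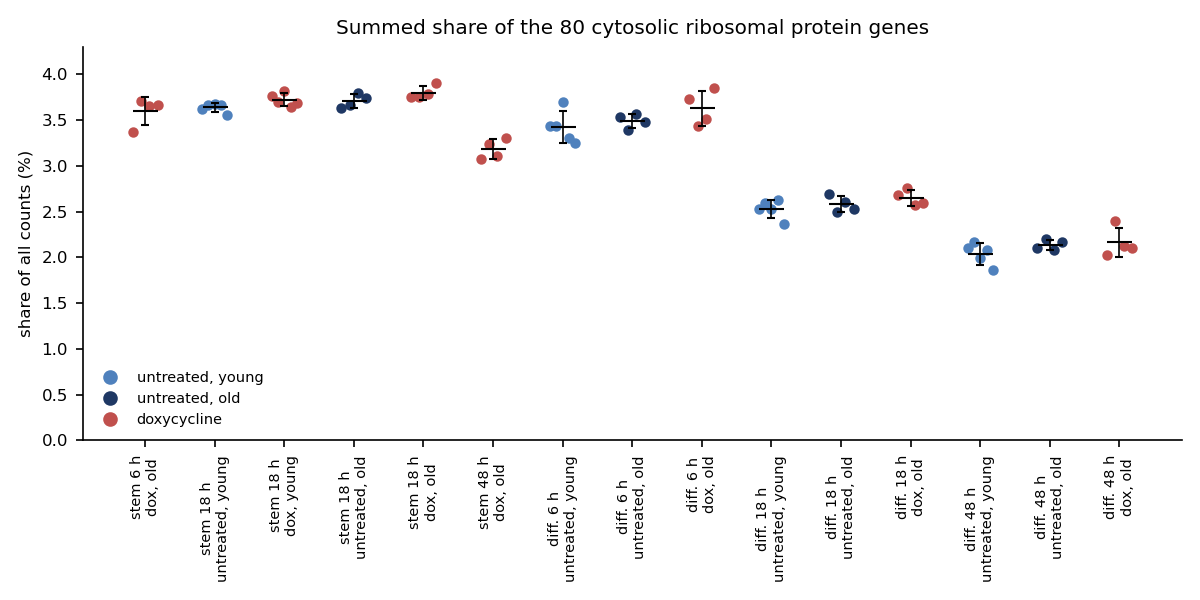
Share of all counts in the 80 ribosomal protein genes (y axis, percent) in each of the 15 groups (x axis, by medium, hour, treatment and age); points are libraries and bars are the mean with its SD. The groups fall from 3.43 to 3.63% at 6 h of differentiation to 2.04 to 2.17% at 48 h, and the treatments and ages at one time lie close together.

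At 6 h after the growth factors were withdrawn, ribosomal protein mRNAs were already slightly lower as a group, although the pattern differed from gene to gene. Rpl27, a protein of the large subunit, fell most at both ages, and Rps27l of the small subunit was among the larger falls. Rps6, the subunit protein that S6 kinases phosphorylate, fell as well, as did Rpl5 and Rpl11, which bind 5S ribosomal RNA and can hold MDM2. A few members were higher instead, among them Rps29 in young cells and Rps27 in old cells.

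Against 18 h in stem cell medium, 47 of the 77 members tested were lower and 2 higher in untreated young cells at 6 h of differentiation (edgeR quasi-likelihood test, adjusted p under 0.05). The background was wide: 36.5% of all genes tested were lower and 38.4% higher. Their median log2 fold change was -0.13 against 0.03 over all genes. In old cells 57 of 77 were lower and 2 higher (37.4% and 38.2% of all genes), with a median of -0.15 against 0.02, and 46 members were lower at both ages. Rpl27 was at 275.8, 277.8, 279.9, 273.2 and 270.8 CPM in the stem cell medium libraries of young replicates 1 to 5 and at 211.2, 210.6, 221.0, 189.1 and 197.3 CPM at 6 h. Every library of differentiation lay below every library of stem cell medium. The change was -0.41 ± 0.042 (log2 ± SE, edgeR adjusted p = 9.5e-07) in young and -0.40 ± 0.037 (adjusted p = 1.08e-06) in old cells. Rps27l changed by -0.36 and -0.32, and Rps6 by -0.28 at both ages. Rpl5 changed by -0.22 in young and -0.19 in old cells, and Rpl11 by -0.20 and -0.16.

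The members that rose did so by little, and none at both ages. Rps29, a zinc-binding protein of the small subunit head, went from 253.4 ± 3.93 to 276.6 ± 10.8 CPM in young cells, a log2 change of 0.14 (edgeR adjusted p = 0.00299), and its change in old cells was 0.01 (adjusted p = 0.819). Rplp1 rose by 0.10 in young cells (adjusted p = 0.0375) with overlapping libraries. In old cells Rps27 rose by 0.11 (adjusted p = 0.0193) and Rps9 by 0.09 (adjusted p = 0.0443). The stalk protein Rplp0 changed by 0.01 and -0.02 and did not pass the test at either age. Whether these changes differ between ages was not tested at this step.

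Between 6 and 18 h of differentiation nearly every member fell, in young and in old cells. Rps27l and Rps2 fell most, and Rpl12 at the base of the stalk and Rpsa, the small-subunit protein also known as the laminin receptor, were among the next. Rpl22, a large-subunit protein that also binds other RNAs, did not pass the test at either age. Over the same step all 20 cell cycle genes of the list fell, by medians of -3.85 in young and -4.27 in old cells. The part of the cell cycle in the members' fall was not tested.

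In young cells 76 of 77 members were lower and none higher at 18 h than at 6 h of differentiation (32.4% and 34.0% of all genes), with a median log2 fold change of -0.40 against 0.01 over all genes. In old cells 76 of 78 were lower and none higher (33.6% and 34.1%), with a median of -0.39 against 0.01, and the same 76 genes were lower at both ages. All 31 small-subunit members fell at both ages. Rps27l was at 108.1, 99.33, 116.3, 90.37 and 89.57 CPM at 6 h in young replicates 1 to 5 and at 56.02, 54.39, 50.63, 53.18 and 48.86 CPM at 18 h. No library at 18 h reached a library at 6 h. The change was -0.93 ± 0.072 (edgeR adjusted p = 5.3e-08), and -0.96 ± 0.039 in old cells (adjusted p = 1.35e-10). Rps2, near the entry of the mRNA channel, changed by -0.84 in young and -0.80 in old cells. Rpl12 changed by -0.79 and -0.73 and Rpsa by -0.74 and -0.76. Rps25, known for a role in initiation from internal entry sites, changed by -0.69 in young cells, and Rpl41, the smallest member, by -0.76 in old cells.

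Rpl22 stood outside this fall. It lay at 260.7, 256.8, 272.0, 240.6 and 237.5 CPM at 6 h in young replicates 1 to 5 and at 249.4, 253.5, 231.5, 260.7 and 235.1 CPM at 18 h. The libraries of the 2 times overlapped, and the log2 change was -0.03 ± 0.048 (edgeR adjusted p = 0.531), with -0.02 ± 0.034 (adjusted p = 0.587) in old cells. Its paralog Rpl22l1, which the rule does not take in, went from 52.85 ± 6.84 to 26.52 ± 1.67 CPM in young cells, a log2 change of -0.99 (adjusted p = 1.63e-07). Rps27, the paralog partner of Rps27l, changed by -0.18 in young cells (adjusted p = 0.013) and -0.23 in old cells (adjusted p = 0.00014). The stalk proteins fell together, Rplp0 by 0.37, Rplp1 by 0.45 and Rplp2 by 0.62 on the log2 scale in young cells.

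The fall went on from 18 to 48 h of differentiation, with other members in front. Rpsa fell again, together with Rps4x, the X-linked form of a small-subunit protein, and Rpl28, while Rps27l, in front before, moved little. In young cells 74 of 78 members were lower and 1 higher (29.2% and 27.7% of all genes), with a median of -0.29 against -0.01. In old cells 67 of 78 were lower and 1 higher (28.5% and 28.0%), with a median of -0.28, and 66 were lower at both ages. Rpsa, a protein of the small subunit, was at 753.0, 792.3, 764.9, 805.6 and 756.1 CPM at 18 h and at 543.8, 564.0, 535.7, 525.7 and 488.9 CPM at 48 h in young replicates 1 to 5. The times did not overlap. Its change was -0.56 ± 0.043 (edgeR adjusted p = 1.55e-07) in young and -0.54 ± 0.050 (adjusted p = 8.79e-07) in old cells. Rps4x changed by -0.50 and -0.47, and Rpl28 by -0.48 at both ages. Rps27l changed by -0.19 in young cells (adjusted p = 0.00217) and by -0.04 in old cells, where it did not pass (adjusted p = 0.442).

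The members not called at this step in young cells were Rpl22, Rpl38 and Rps14, and in old cells 10 members were not called. The change of Rpl22 was 0.01 in young and -0.03 in old cells. Rpl3l was the only member that was higher at both ages. It went from 0.152 ± 0.106 to 0.405 ± 0.0780 CPM in young cells, a log2 change of 1.42 ± 0.363 (edgeR adjusted p = 0.00419), and from 0.101 ± 0.0639 to 0.260 ± 0.0988 CPM in old cells, a change of 1.33 ± 0.476 (adjusted p = 0.0288). The libraries of the 2 times overlapped at both ages, and in old cells the call was lost under 6 of 16 alternatives (adjusted p up to 0.0816). At its highest Rpl3l was at 0.481 CPM, so it added nearly nothing to the summed level.

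**Figure D2:**
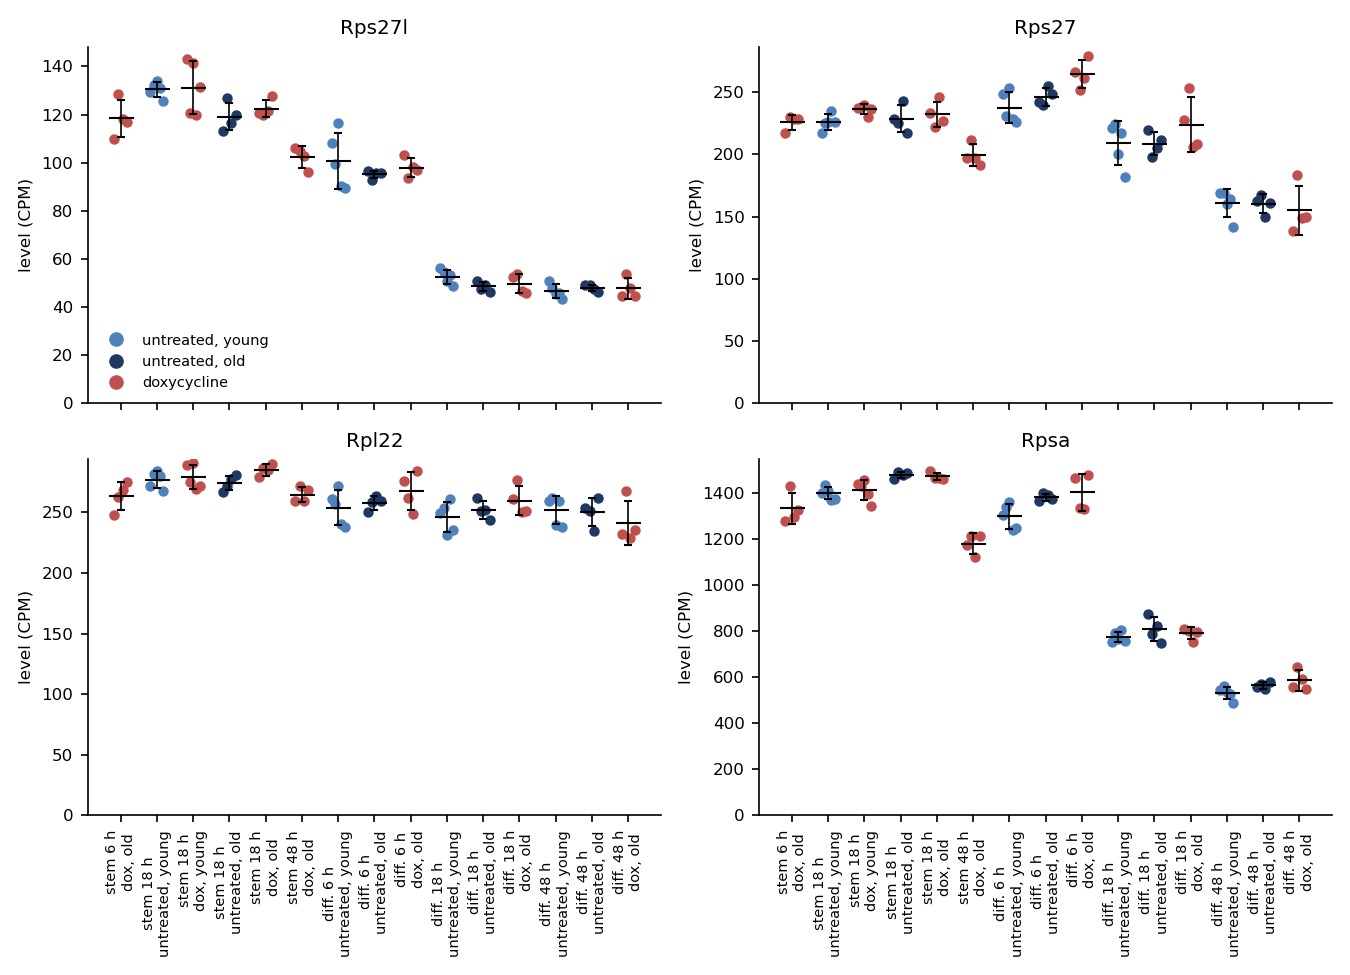
Level in CPM (y axis) of Rps27l, Rps27, Rpl22 and Rpsa in every library, by group (x axis); points are libraries and bars the mean with its SD. Rps27l drops from 6 to 18 h of differentiation and then changes little, Rpsa drops at both later steps, Rps27 is lower mainly at 48 h, and Rpl22 stays between 229.0 and 290.3 CPM in all libraries.

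Set against stem cell medium at the same labelled hour, 76 of 77 members were lower at 18 h of differentiation in untreated young cells and none was higher (40.3% and 42.3% of all genes), with a median log2 fold change of -0.53 against 0.03. In untreated old cells 75 of 77 were lower and none higher (40.5% and 41.5%), with a median of -0.53, and 75 were lower at both ages. The labelled hour counts from plating in stem cell medium and from the change of medium in differentiation. Medium and time since plating thus cannot be told apart here. Members also fell with time in stem cell medium alone, as given below for old cells with doxycycline (median -0.31 from 18 to 48 h). Rps27l fell most. It was at 129.4, 132.4, 133.8, 131.1 and 125.6 CPM in young stem cell medium libraries against the 48.86 to 56.02 CPM given above, a change of -1.27 ± 0.039 (edgeR adjusted p = 4.92e-13), and -1.26 ± 0.045 in old cells (adjusted p = 2.19e-11). Rpl12 went from 520.5 ± 22.4 to 247.9 ± 8.23 CPM in young cells, a change of -1.03, and by -0.97 in old cells. Rps2 changed by -0.95 in young and -0.87 in old cells. Rps25 changed by -0.89 at both ages and Rps27a, which is made as a fusion with ubiquitin, by -0.87 in young cells. In old cells Rpsa went from 1477 ± 13.3 to 809.1 ± 53.8 CPM, a change of -0.83.

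At the other end stood Rps27 and Rpl22, with Rps9 in old cells. Rps27 changed by -0.07 ± 0.048 in young cells (edgeR adjusted p = 0.19) and by -0.10 ± 0.044 in old cells (adjusted p = 0.0551). Rps27 and Rps27l encode nearly the same protein, yet their mRNAs stood at opposite ends of the range. Rpl22 changed by -0.13 ± 0.035 in young cells (adjusted p = 0.00372) and by -0.09 ± 0.035 in old cells (adjusted p = 0.0362), where 5 of 16 alternatives lost the call. Rps9 changed by -0.21 in young cells (adjusted p = 0.000222) and by -0.10 (SE 0.046, adjusted p = 0.0704) in old cells. The members thus ran from almost no change to a fall by more than a log2 unit.

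The start-site letters shown above did not sort the members sharply. Over this comparison, members with a TOP motif at the start (13) had a median change of -0.57 in young and -0.54 in old cells, and those without it (44) had -0.51 and -0.52. Members with CCGGAAG in the window (24) had a median of -0.60 at both ages, and those without it (33) had -0.46 in young and -0.48 in old cells. The ranges overlapped in each case, and no test was made. Rps27l, which fell most, has both a pyrimidine run near the start and CCGGAAG, as does Rps2. The other large falls shown were mixed. Rpl12 has a pyrimidine run and no CCGGAAG in the window, and Rpsa and Rps25 have CCGGAAG and no such run. Among the smallest changes, Rps9 and Rps27 have a pyrimidine run and Rpl22 has none, and none of these 3 has CCGGAAG in the window.

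**Figure D3:**
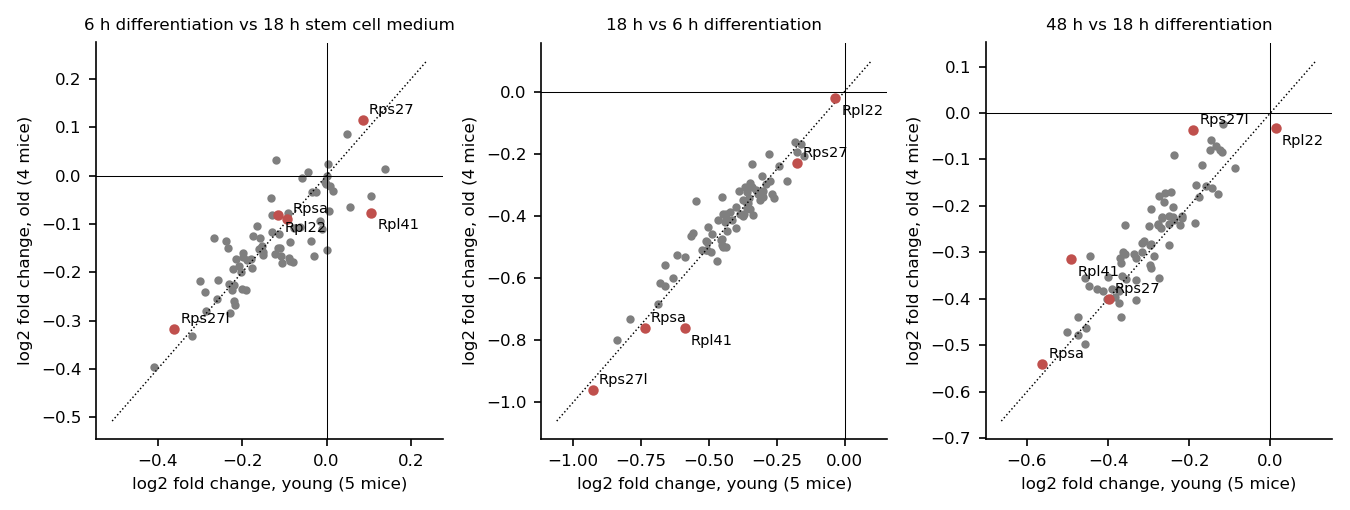
Log2 fold change of each member in young (x axis) against old cells (y axis), untreated, in 3 panels for 6 h of differentiation against 18 h in stem cell medium, 18 h against 6 h, and 48 h against 18 h; the dotted line marks equal changes, and Rps27l, Rpl22, Rps27, Rpl41 and Rpsa are in red. Points lie near the line in each panel, with a median distance between the ages of 0.0322 to 0.04.

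The size of each member's change was compared between young and old cells. Over 77 members the correlation of the changes was 0.82 for the 6 h step, 0.94 from 6 to 18 h, 0.90 from 18 to 48 h and 0.87 for 18 h against stem cell medium, as a description, since all members share the libraries. The median distance between the ages was 0.04, 0.0322, 0.0371 and 0.0606 log2 units in the same order. Rpl41 was farthest apart at the 6 h step (0.182), from 18 to 48 h (0.177) and at 18 h against stem cell medium (0.357), and Rpl36, a protein of the large subunit, from 6 to 18 h (0.194). The test of the difference itself was the interaction of age with 18 h of differentiation against stem cell medium. It called no member and 0.818% of all genes. There were 12 members at an unadjusted p under 0.05 and 3 called by DESeq2. The unadjusted and DESeq2 counts come without the share of all genes, so they cannot be set against a background. For Rps27l the difference between ages was 0.02 ± 0.063 (edgeR adjusted p = 0.912), and for Rpl22 it was 0.06 ± 0.055 (adjusted p = 0.67). With the animal as a block no member was called either (0.987% of all genes).

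Ribosome biogenesis factors, which build and modify the ribosome but are not part of it, followed another course than the ribosomal proteins. All 30 of the list fell by 6 h of differentiation, by a median of -1.61 in young and -1.59 in old cells. From 6 to 18 h, 16 of 30 were higher and 7 lower in young cells and 17 and 8 in old cells, with medians of 0.16 and 0.22. From 18 to 48 h, 27 were higher and none lower in young cells, and 28 and none in old cells, with medians of 0.41 and 0.48. Rrp12, needed to export both subunits from the nucleus, went in young cells from 30.4 ± 1.78 CPM, at 18 h with the growth factors, to 5.68 ± 0.940, 9.01 ± 0.685 and 16.8 ± 1.05 CPM at 6, 18 and 48 h of differentiation. The biogenesis factors thus fell first and rose in part while the ribosomal protein mRNAs were still falling.

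Myc, a driver of ribosome synthesis, moved like the biogenesis factors. It went from 167 ± 9.23 CPM in stem cell medium to 18.1 ± 4.65 CPM at 6 h of differentiation in young cells, a log2 change of -3.19 ± 0.156 (edgeR adjusted p = 8.01e-09), and then to 35.7 ± 3.69 and 80.6 ± 9.91 CPM at 18 and 48 h. The doxycycline cassette also carries Myc, so this holds for untreated cells. Larp1, the TOP mRNA binding protein, fell by 1.82 on the log2 scale at 6 h, and Ddit4, an inhibitor of mTOR, rose by 1.60. Polr1b, a subunit of RNA polymerase I, changed by -2.11, and 9 of the 11 genes of the polymerase I list were lower in young and 10 in old cells.

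The 78 mitochondrial ribosomal protein genes, which serve another ribosome, fell in part. At 6 h of differentiation 51 were lower and 9 higher in young cells (median -0.21) and 59 and 7 in old cells (median -0.27). From 6 to 18 h, 42 were lower and 6 higher in young and 49 and 5 in old cells, with medians of -0.15 and -0.21. From 18 to 48 h, more were higher than lower (25 and 15 in young, 29 and 10 in old cells), with medians of 0.04 and 0.07, and the share higher in young cells was close to the 27.7% of all genes. Of 17 elongation factors and other TOP mRNAs, 11 were lower and 3 higher from 6 to 18 h in young cells. Eef1g, an elongation factor subunit, changed by -0.72, and Eif4b, an initiation factor, by 0.51. Of the 8 related ribosomal proteins that the rule leaves out, such as Fau and Rack1, 7 in young and 8 in old cells were lower at that step.

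**Figure D4:**
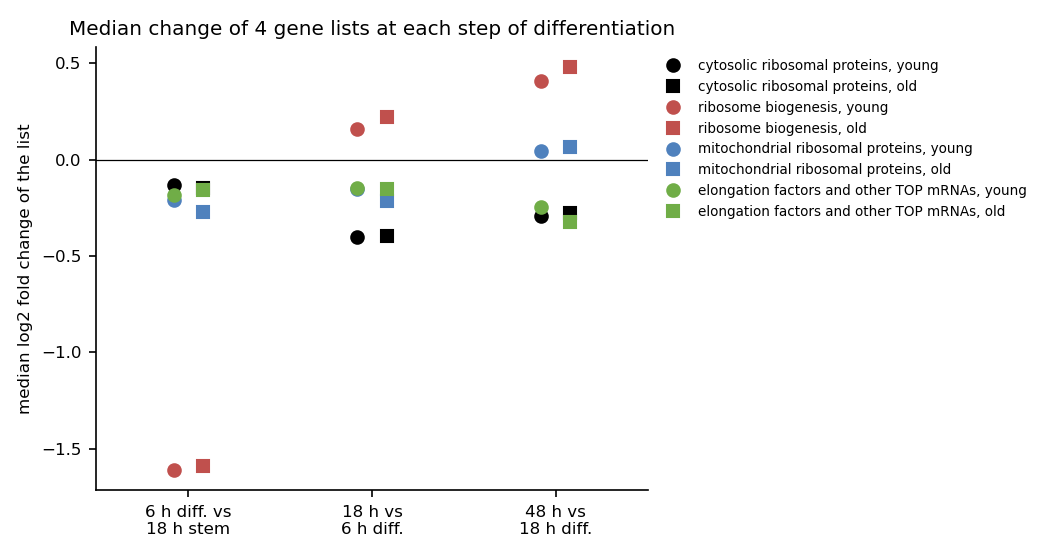
Median log2 fold change (y axis) of the ribosomal protein genes, ribosome biogenesis factors, mitochondrial ribosomal proteins and elongation factors with other TOP mRNAs at the 3 steps of differentiation (x axis); circles are young and squares old cells. The biogenesis factors are at -1.61 and -1.59 at the 6 h step and above 0 later, while the ribosomal proteins are below 0 at each step.

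Summed markers of cell types moved over the same times. Summed astrocyte markers rose from 1326 CPM in young cells at 18 h in stem cell medium to 2451, 4721 and 6993 CPM at 6, 18 and 48 h of differentiation, with 6 of 7 markers called higher at the 6 h step. Neuroblast and neuron markers summed to 1026, 1190, 1735 and 1404 CPM, and oligodendrocyte lineage markers to 1841, 3357, 3087 and 3098 CPM. These 2 sums rest on few genes. Over the 65 libraries Map2 had a median of 1090 CPM, against 47.9 for Tubb3 and 21.3 for Dcx. Olig1 had a median of 1730 CPM and Cnp 605 CPM, against 0.0661 for Mag and 0.0464 for Mog. The sums are therefore not a measure of these lineages. None of the markers of these 3 lists was at 0 throughout. Their part in the members' fall was not tested.

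Within old cells treated with doxycycline, differentiation was set against stem cell medium at the same labelled hour, which counts from plating in stem cell medium and from the change of medium in differentiation. At 6 h the members did not fall together. In differentiation 15 of 77 were higher and 28 lower than in stem cell medium (41.4% and 39.3% of all genes). The share lower was close to that of all genes, and the share higher was below it. Their median change was -0.03, against 0.04 over all genes. Rplp1 was at 575.6, 582.7, 567.4 and 577.8 CPM in stem cell medium and at 796.9, 695.1, 766.7 and 839.5 CPM in differentiation in replicates 1 to 4. The media did not overlap, and the change was 0.45 ± 0.058 (edgeR adjusted p = 1.46e-05). Rpl41 changed by 0.35, Rps29 by 0.30, Rps27 by 0.25 and Rpl31 by 0.22. Rps6 changed by -0.34, Rpl18 by -0.31 and Rpl15 by -0.30, and Rpl27 was again among the largest falls. The stem cell medium arm here was 6 h after plating, whereas the untreated comparison above used 18 h. The libraries of the 2 arms also differed in a label letter described below (F to H against A to D), which was not tested within these libraries. With that letter as a covariate in a fit of all groups, 13 members were higher and 33 lower (39.7% and 37.5% of all genes).

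At 18 h with doxycycline, 76 of 77 members were lower in differentiation and none higher (40.0% and 41.4% of all genes), with a median of -0.55. Rps27 alone was not called, at -0.02 ± 0.063 (edgeR adjusted p = 0.822). Rps27l changed by -1.26, Rpl12 and Rps2 by -1.09 each, Rps27a by -0.89 and Rps25 by -0.86. At 48 h, 76 of 78 were lower and 1 was higher (37.1% and 39.8%), with a median of -0.48. Rps27l changed by -1.07, Rpl12 by -1.02, Rpsa by -0.98, and the member higher was Rpl3l, by 2.39 ± 0.533 (adjusted p = 0.00126). Rps14, part of the small-subunit platform, was not called. The median at 48 h was no larger than at 18 h, and in stem cell medium the level itself was lower at 48 h.

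Members also moved with time in stem cell medium, where old cells with doxycycline were sampled at 6, 18 and 48 h. From 6 to 18 h, 36 of 77 were higher and 2 lower (30.6% and 30.7% of all genes), with a median of 0.09. Rplp1 changed by 0.28, Rps12 by 0.27 and Rps26, which touches the mRNA at the exit of its channel, by 0.22, while Rpl15 changed by -0.10 and Rpl3, of the peptidyl transferase region, by -0.08. These times had the letters A to D and E to H, so hour and letter cannot be told apart in these libraries alone. In the fit of all groups with the letter, 23 were higher and 6 lower (28.5% and 30.4% of all genes). From 18 to 48 h, 75 of 77 were lower and none higher (26.3% and 26.0%), with a median of -0.31. Rpl36 went from 250.9, 254.4, 260.3 and 295.7 CPM to 171.1, 181.0, 173.0 and 176.7 CPM in replicates 1 to 4. The times were far apart, with a change of -0.59. Rpl35, at the exit of the peptide tunnel, changed by -0.57, Rps12 by -0.53 and Rpl11 by -0.50.

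This fall in stem cell medium was not accompanied by a fall of the cell cycle list. From 18 to 48 h, 10 of its 20 genes were higher and 1 lower, and from 6 to 18 h 11 were higher and 1 lower. The 30 biogenesis factors were lower at both steps, by medians of -0.63 and -0.34. Rpl41 was not called from 18 to 48 h. In old cells 74 members were lower both here and from 6 to 18 h of differentiation without doxycycline, comparisons that share the animals and no library. Since 75 of 77 and 76 of 78 were lower in the single comparisons, so large an overlap follows from these counts and adds nothing to them. Rps27l, at -0.25 here, was not in front as it was in differentiation.

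Doxycycline moved the members little. In the 5 comparisons with untreated cells of the same age, medium and hour no member was called by the edgeR test without an animal term, and 0.0361%, 0.018%, 0.0294%, 0.0118% and 0.0296% of all genes were called (young, then old cells in stem cell medium at 18 h, then old cells at 6, 18 and 48 h of differentiation). In the same order, 12, 27, 20, 11 and 0 members had an unadjusted p under 0.05, of which 12, 23, 20, 11 and 0 were higher, and DESeq2 called 1, 5, 1, 0 and 0. These counts, and those without 1 animal below, come without the share of all genes, so they cannot be set against a background. With the animal as a block, which the labels' replicate numbers allow, members were called in 3 of the 5. In young cells at 18 h in stem cell medium these were Rplp1, Rps14, Rps29 and Rpl10a, all higher (4 of 77; 6.85% of all genes were higher and 6.74% lower). Leaving out 1 animal gave 16 calls without replicate 5 and 0 to 2 without any of the other 4. At 6 h of differentiation in old cells 11 of 78 were higher and none lower (1.69% and 1.98% of all genes), Rplp1 by 0.16 and Rps14 by 0.15. Leaving out 1 animal gave 10 calls without replicate 3 and 1 or 2 without any of the other 3. At 18 and 48 h of differentiation none was called (0.883% and 4.15% of all genes).

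At that hour in stem cell medium, 31 of 77 members were higher and 6 lower in old cells with the block (4.18% and 7.01% of all genes), with 17 calls without replicate 2 and 22 without replicate 4. Rpl36 was at 226.9, 208.8, 234.7 and 232.5 CPM without and at 250.9, 254.4, 260.3 and 295.7 CPM with doxycycline in replicates 1 to 4, higher in 4 of 4 animals. Its change was 0.24 ± 0.032 (edgeR adjusted p = 0.000942 with the block and 0.292 without). Rpl39, a short protein of the peptide tunnel, also changed by 0.24 (adjusted p = 0.00354 with and 0.29 without the block). Rpl41 was at 645.1, 662.6, 658.5 and 626.5 CPM without and at 591.1, 564.3, 587.9 and 556.4 CPM with doxycycline, lower in 4 of 4 animals, by -0.16 ± 0.019 (adjusted p = 2.65e-06 with and 0.29 without the block). Rps26 and Rps28, neighbours at the mRNA exit, were lower too, by -0.15 and -0.10.

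These doxycycline groups also differed in another label. Each description begins with a letter from A to H and a number, whose meaning the labels do not give. The untreated old libraries at 18 h in stem cell medium had the letters A, B, B and C, and those with doxycycline E, G, F and H. At 6 h of differentiation the untreated old libraries had C, D, E and A, and those with doxycycline F, H, H and G. Taken in order over all 65 libraries, in a fit with all groups and animals made after the values were seen, 8 of 78 members were higher and 5 lower along the letters (0.912% and 2.08% of all genes). Rpl41 changed by -0.03 ± 0.0056 per letter (edgeR adjusted p = 0.000265) and Rpl39 by 0.03 ± 0.0056 (adjusted p = 0.000506). Rps26, Rps28 and Rpl28 were lower and Rpl36 higher along the letters. Each went in the direction of its doxycycline change above, with the growth factors present. After 6 h of differentiation this held in part. There mean Rpl41 of the old libraries was 611.7 ± 34.8 CPM untreated and 659.1 ± 46.5 CPM with doxycycline, opposite to its change along the letters. Rpl39 (167.5 and 183.4 CPM) and Rpl36 (202.6 and 221.0 CPM) were also higher with doxycycline, in the direction of theirs. The ratio of Rpl41 to Rpl39 in CPM had a median of 3.65 in the 9 libraries of letter A and 2.68 in the 8 of letter H. These were the called members with the largest change along the letters in each direction. Their ratio in the same libraries therefore illustrates that fit and adds nothing to it. The groups differ between letters, and the medians were not adjusted for them. In that fit of all groups no member was called for doxycycline among the old libraries kept 18 h with the growth factors. This held with the letter as a covariate (0.139% of all genes) and without it (0.357%). At 6 h of differentiation it called 1 member with the letter (0.331% of all genes). Doxycycline and letter cannot be told apart within the libraries of either comparison alone.

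**Figure D5:**
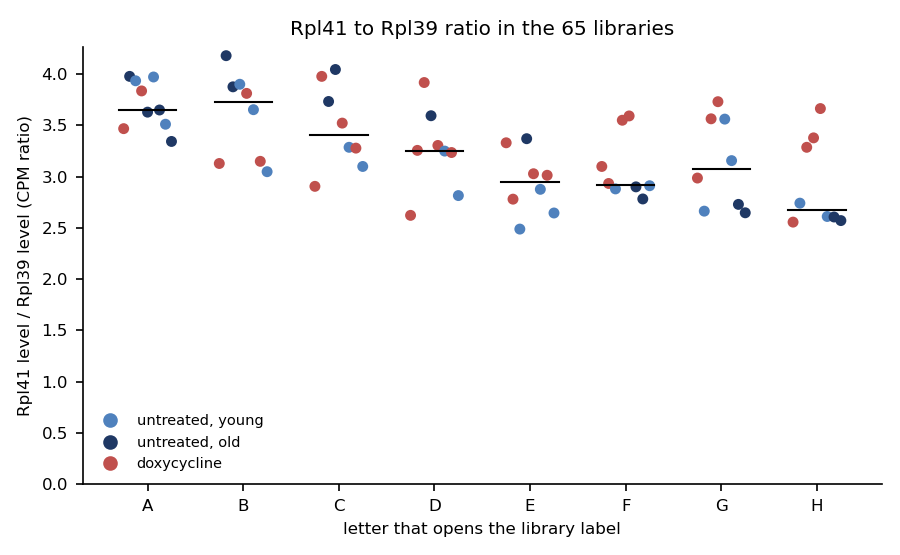
Ratio of Rpl41 to Rpl39 CPM (y axis) in each of the 65 libraries by the letter that opens its description (x axis, A to H); black lines are medians. The medians are 3.65 for A and 3.73 for B and lie between 2.68 and 3.07 for E to H, with overlap between single libraries. These are the called members with the largest change along the letters in the same libraries, and the medians are not adjusted for group.

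The count of members that differed with age was small and depended on single libraries. Between untreated old and young cells, 1 of 77 members was higher and 3 lower at 18 h in stem cell medium (3.09% and 2.86% of all genes). DESeq2 called 12 there, and leaving out 1 library gave 15 calls without young replicate 5 and 0 to 2 without any of the other 8. The DESeq2 and left-out counts, and those at an unadjusted p below, come without the share of all genes. They cannot be set against a background. None was called at 6 h of differentiation (1.43% of all genes in either direction) or at 18 h (5.19%), by edgeR or DESeq2, where 0 and 4 had an unadjusted p under 0.05, and 2 of 78 were higher and none lower at 48 h (5.63% and 5.02%). At 18 h in stem cell medium Rpl39 changed by -0.24 (edgeR adjusted p = 0.0448) and Rpl36 by -0.18 (adjusted p = 0.0494). Rps27l was at 125.6 to 133.8 CPM in young and 113.3 to 126.8 CPM in old libraries, overlapping, with a change of -0.14 (adjusted p = 0.0367). At 48 h Rps2 changed by 0.14 (adjusted p = 0.0464) and Rpl18 by 0.13 (adjusted p = 0.0378). Each of these 5 calls was lost under 8 to 11 of 16 alternatives, and with the letter as a covariate no member was called for age at any of the 4 times (4.38%, 2.06%, 1.19% and 7.23% of all genes). Rpl39 and Rpl36 are among the members that moved along the letters, and at this time the untreated young libraries had the letters E, F, G, H and A.

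The tests of whether the doxycycline effect differed between ages or media, without an animal term, called no member (0.0% of all genes for age, 0.00566% for medium). In each, 18 members had an unadjusted p under 0.05, and DESeq2 called 0 and 2, counts that come without the share of all genes. With the animal as a block the interaction with age at 18 h in stem cell medium called 4 of 77 members, 2 in each direction (3.43% of all genes). Rps12 (0.23 ± 0.056, edgeR adjusted p = 0.0434) and Rpl35a (0.20 ± 0.039, adjusted p = 0.012) had a higher effect in old cells. Rplp1 (adjusted p = 0.03) and Rpl28 (-0.16 ± 0.043, adjusted p = 0.0431) had a lower one. Old doxycycline libraries with late letters enter this test, and the part of the letter in it was not tested for single members.

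Outside the members, the genes whose level followed the members most closely were ranked by correlation with their mean log2 CPM over the 15 groups, among 4760 protein-coding genes whose mean reached 50 CPM. Tln1 (talin, r = 0.997), S100a11 (r = 0.996), Rack1 (r = 0.994), Hsp90ab1 (r = 0.992) and Wdr38 (r = 0.992) came first. Rack1 is itself a protein of the small subunit that the rule does not take in. The mean of the members spanned 0.894 log2 units over the groups, Rack1 1.04 and S100a11 4.9, so likeness here is of order and shape and not of size. All points share the libraries, and the groups are dominated by the time of differentiation.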

How the data were processed

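Poly(A) RNA of primary neural stem cells was sequenced as stranded paired reads, per the labels' protocols. The authors deposited a table of counts per gene for 65 libraries, with a gene length column, and variance-stabilised values on a log2 scale, used as an alternative. The gene length column served as the union of exons for levels per kilobase. Build mm10 with STAR 2.7.10b, Trim Galore 0.6.6, Subread, SAMtools and DESeq2 1.40.1 is named, without settings, in the submitters' processing notes. The deposited counts hold 75644 values of 2 and 19963 of 1, so a fragment often adds 2 counts. Members, promoters and the lengths of transcripts came from GENCODE M21 and RefSeq.

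Each comparison was fitted on its 2 groups with edgeR 4.0.16 (R 4.3.3): robust quasi-likelihood tests after TMM scaling, filterByExpr at a least count of 10, and Benjamini-Hochberg adjustment over all genes, at 0.05. CPM values were scaled over all 65 libraries and fold changes within each comparison, which shifts members by -0.02 to 0.04 log2 units. The SE sets the precision; depth is in the report. Scripts were tested on simulated data. Copies were found with BLAST+ 2.17.0.

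Within an age, labels name the same animal for the same replicate number: over 18 comparisons, deviations of same-animal libraries correlated by medians of 0.52 to 0.80 (lowest pair 0.24), others by -0.54 to -0.20. The labels state no model, so the main design has no animal term and the blocked fit is the alternative. Other alternatives were DESeq2 1.42.0, total-count scaling, TMM without the members, no filter, limma 3.58.1 on the log2 values, a sex term for age, and leaving out each replicate. Fits of all groups, the letter covariate and the principal transcript length were added after the values were seen. The members and lists were chosen with earlier results of these data known.

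Named members are, per comparison, up to 5 per direction with the largest called change and a mean of at least 5 CPM, plus a fixed set (stalk proteins, low paralogs with their partners, Rps6, Rpsa, Rpl5, Rpl11, Rpl22). Others, such as Rps9, Rpl38 and Rps14, were named after their values were seen. Values of a few single members are not reported here.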

Additional observations from a re-analysis of the deposited data

Results flagged for a closer look

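For 16 measures in the 15 groups, all of 4 or 5 libraries, 240 sets of libraries were examined for 1 library far from the others, and 14 had one; chance alone gives about 1 such set in 20. No explanation was tested for any of them.

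The old doxycycline group at 6 h in stem cell medium had 4 of these. Its replicate 1 lay low in the summed share (3.368%, others 3.66% to 3.713%), in Rps27 (216.9 CPM, others 228.3 to 229.6) and in Rps25 (383.8 CPM, others 422.3 to 423.3). That library also had 3.60% of its counts in features that overlap ribosomal RNA, against 0.399% to 0.613% in the other 3. Its replicate 2 lay high in the ratio of small- to large-subunit counts (0.6583, others 0.6515 to 0.6526). In untreated young cells at 18 h in stem cell medium replicate 5 lay low in that ratio (0.6568, others 0.6664 to 0.6693).

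In old cells with doxycycline at 18 h in stem cell medium replicate 4 lay high in Rps27l (127.8 CPM, others 120.0 to 121.4), Rpl12 (591.0 CPM, others 537.2 to 543.5) and Rpl27 (295.3 CPM, others 276.5 to 279.6). Replicate 1 of that group lay high in Rpsa (1496 CPM, others 1461 to 1467). In untreated old cells at the same time replicate 1 lay low in Rpl27 (262.9 CPM, others 278.0 to 280.5). At 48 h of differentiation with doxycycline, old replicate 2 lay high in Rpl22 (267.6 CPM, others 229.0 to 235.2).

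The other 3 concern Rpl3l, whose few counts make single libraries stand out. It was at 0.06806 CPM in replicate 2 and at 0 in the other 3 libraries of old doxycycline cells at 18 h in stem cell medium. It was at 0.3372 CPM in replicate 5 of untreated young cells at 18 h of differentiation (others 0.07583 to 0.1371). In old doxycycline cells at that time it was at 0.278 CPM in replicate 3 (others 0.1067 to 0.1284).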

How the results depend on the processing

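No alternative turned the direction of a called result. Of the members' median changes, 431 moved by less than the spread between replicates and 4 by more: with the letter, age at 18 h in stem cell medium gave 0.029 (from -0.009) and 18 h against stem cell medium in old cells -0.575, and total-count scaling gave -0.107 for the 6 h step in old cells and -0.27 from 18 to 48 h in stem cell medium. Of the values for single named genes under the alternatives, 7519 kept their call or lack of it, 156 gained and 182 lost a call. The counts of called members along differentiation, between media and with time moved by less than 1.5 times under every alternative, except that scaling by total counts gave 25 from 6 to 18 h in stem cell medium. With the replicate block the doxycycline counts were 4 (young) and 37 (old) in stem cell medium at 18 h and 11 at 6 h of differentiation, and the interaction of doxycycline with age gave 4, and no other count moved by over 1.5 times. DESeq2 called 1, 5 and 1 members for these 3 doxycycline comparisons, 12 for age at 18 h in stem cell medium, 4 for age at 48 h, 3 for differentiation by age and 2 for doxycycline by medium. The fit of all groups with the block called 1 for doxycycline in young cells and 3 for differentiation by age; with the letter it called 1 in young cells and 1 at 6 h of differentiation. The letter as a covariate gave 0 for age in stem cell medium and 0 at 48 h, and limma on the log2 values and no low-count filter gave 1 each at 48 h. The percentile ratio of levels was 4.63 and 3.35 with other lengths. The cause of these moves was not tested. Counts of called members here and below come without the share of all genes and cannot be set against a background.

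Without each replicate in turn, the counts ran from 43 to 56 (young) and 53 to 58 (old) at the 6 h step, 75 to 76 and 76 from 6 to 18 h, 69 to 76 and 62 to 69 from 18 to 48 h, and 75 to 76 and 74 to 77 for 18 h against stem cell medium. Between media with doxycycline they ran from 34 to 45, 73 to 77 and 75 to 78 at 6, 18 and 48 h, and with time in stem cell medium from 27 to 35 and 72 to 77. For doxycycline they were 0 to 4 in young cells and 0 elsewhere; with the block 0 to 16 (young), 17 to 39 (old, 22 without replicate 4), 1 to 10, 0 to 6 and 0 to 3. For age they were 0 to 15 in stem cell medium, 0 to 3 at 48 h of differentiation and 0 at the others, and for the interactions 0 to 5, 0 to 1 and 0 to 1. Depth limited Rpl3l, and Rpl10l and Rpl39l had too few counts to be tested.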
